A study of Mus musculus with 10 samples.

Results

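App and Thy1 are the 2 mouse genes described here, chosen because the 5XFAD transgenes carry human APP coding sequence and mouse Thy1 sequence. They are 2 of the 53700 gene identifiers in the deposited counts, and both passed the filter on low counts that left 19268 genes. Cortex RNA of 10 female mice aged 4 months was sequenced, 5 mice labelled 5XFAD;Neu cKO and 5 labelled 5XFAD. All 10 mice carried the 5XFAD transgenes. In 5XFAD;Neu cKO mice a Camk2a-Cre line recombines floxed Idol, an allele of the gene that encodes an E3 ubiquitin ligase of lipoprotein receptors. Camk2a is active mainly in excitatory forebrain neurons, so the deletion is aimed at these cells. Which cells of the cortex kept the gene was not measured here. The 5XFAD mice were littermates whose sample titles read WT after Camk2a-cre. The paper's abbreviations give WT as wild type for Idol. Whether these mice carried Cre or a floxed allele is not given in the sources used here. Libraries of mice without the transgenes were not analysed here.

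APP is a membrane protein with a single membrane-spanning segment, made by neurons and by other brain cells. Cleavage by beta-secretase and then by gamma-secretase releases amyloid beta from it, and cleavage by alpha-secretase within the amyloid beta stretch prevents that release. THY1 is a small immunoglobulin-like protein held at the cell surface by a glycosylphosphatidylinositol (GPI) anchor. It is among the most abundant surface proteins of mature projection neurons, and in other tissues it marks T cells and some fibroblasts. The promoter of Thy1 is widely used to express transgenes in neurons, and in the 5XFAD transgenes a human cDNA lies inside Thy1 sequence, with noncoding Thy1 sequence on its 3′ side as well.

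In GRCm39, App (ENSMUSG00000022892) lies on the minus strand of chromosome 16 from 84746573 to 84971126, and Thy1 (ENSMUSG00000032011) on the plus strand of chromosome 9 from 43954332 to 43959880. The canonical transcript of App has 17 exons and 751 codons, and that of Thy1 has 4 exons and 162 codons. The sequences below show the part of App from which the peptide comes and the stretch of Thy1 before the start of its canonical transcript. The first is the 126 bases that code for the mouse counterpart of amyloid beta 42, codons 653 to 694 of App, read from the minus strand with the bases of exon 15 in lower case and those of exon 16 in capitals. The exon 15 bases are chr16:84762558-84762608 and the exon 16 bases chr16:84759682-84759756. The second is the 250 bases before the start of the canonical Thy1 transcript, chr9:43954282-43954531, with the letters CCAAT in capitals. Most of this window lies inside the annotated gene, which begins before the canonical transcript. The window is labelled promoter by its position alone, and its activity was not tested.
App amyloid beta 42 stretch: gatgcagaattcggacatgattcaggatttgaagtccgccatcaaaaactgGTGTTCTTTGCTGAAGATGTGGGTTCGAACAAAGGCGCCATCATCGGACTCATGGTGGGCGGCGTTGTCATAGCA
Thy1 promoter: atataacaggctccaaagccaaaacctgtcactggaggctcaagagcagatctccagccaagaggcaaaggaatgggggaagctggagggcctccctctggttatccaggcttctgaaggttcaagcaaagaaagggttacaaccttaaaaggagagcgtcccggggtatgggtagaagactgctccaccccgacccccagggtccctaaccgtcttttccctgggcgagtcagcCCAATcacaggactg

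On either strand, the Thy1 window held 1 CCAAT, 0 of the GC box letters GGGCGG and 0 of the TATA box letters TATAAA. Over windows of the same length before 21757 protein-coding genes, 36.5% held CCAAT, 36.3% GGGCGG and 11.9% TATAAA. Of the 250 bases 55.2% were G or C, against a median of 53.2% over all these windows.

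QuantSeq, the library kit, reads each transcript only near its 3′ end, so a count does not grow with transcript length and levels of different genes are compared here in CPM (counts scaled to a common library size, with TMM factors). This matters for what the rows of App and Thy1 hold. In the canonical App transcript, 5820 bases separate the end of the amyloid beta 42 stretch from the 3′ end, and the 3′ untranslated region of Thy1 takes 1132 of its 1888 bases. A transgene transcript that ends in Thy1 sequence would give its 3′ reads to the Thy1 row, and reads from human APP coding sequence could fall on the App row only where human and mouse are alike. In the Thy1 row, reads of the mouse gene and of the transgenes cannot be told apart from these counts, which are summed per gene. In the annotation 6 genes overlap App, all on the opposite strand, and those of them in the files were counted between 0 and 11 times per library. No annotated gene overlaps Thy1.

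Reads on genes numbered from 4320504 to 7466192 in the libraries labelled 5XFAD and from 5148499 to 7246659 in those labelled 5XFAD;Neu cKO. Mylip, which encodes IDOL, was counted 45 to 108 times in the former and 50 to 148 times in the latter, with a log2 fold change of 0.39 (SE 0.25, edgeR adjusted p = 0.777). Its counts therefore go against the knockout label, and the part of the gene that Cre removes is not given in the sources used here, so that 3′ reads may lie outside it. For this reason the groups are called by their labels throughout. Nothing in the labels names separate batches. The p-values rest on the spread between libraries of these groups, each from its own mouse, with n = 5 libraries per group in every comparison.

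Under the label 5XFAD;Neu cKO Thy1 was lower by 25.4% of its level, while the levels of App overlapped between the groups. Replicates 1 to 5 of 5XFAD held 7152, 5301, 7885, 5543 and 4816 reads on Thy1, and those of 5XFAD;Neu cKO held 4668, 4540, 6109, 5913 and 5820. Scaled by library size, these counts were 1386, 1244, 1071, 1033 and 1081 CPM in 5XFAD and 873, 835, 802, 995 and 836 CPM in 5XFAD;Neu cKO. Every library labelled 5XFAD;Neu cKO lay below every library labelled 5XFAD, with 5XFAD;Neu cKO replicate 4 closest to the other group and 5XFAD replicates 1 and 2 highest of all.

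On average Thy1 reached 868 ± 75.2 CPM under the label 5XFAD;Neu cKO, against 1163 ± 149 CPM under the label 5XFAD (SD, n = 5). The log2 fold change was -0.42 (SE 0.07), which makes the level 25.4% lower, with a 95% interval from 17.2% to 32.7%. By the quasi-likelihood test of edgeR the adjusted p was 0.000826, with Benjamini-Hochberg adjustment over 19268 genes. The exact two-sided permutation test of the log2 CPM values gave p = 0.00794, the smallest that 5 against 5 libraries allow. Over all genes tested, 0.218% passed the threshold of 0.05, 0.161% as lower and 0.0571% as higher. These are 11 genes higher and 31 lower, against 32 higher and 20 lower with library size alone as the scale. The groups did not overlap in 1.3% of all genes, and in 0.721% they did so with 5XFAD;Neu cKO as the lower group. Thy1 passed in all 10 fits that each left out a library, with its highest adjusted p of 0.0146 without 5XFAD replicate 1. With library size alone as the scale, its log2 fold change was -0.33 (adjusted p = 0.00989, edgeR) and the groups met, since Thy1 took 0.101% of the reads both in the lowest 5XFAD library and in the highest 5XFAD;Neu cKO library.

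Reads on App numbered 8993, 6774, 12261, 8344 and 6882 in replicates 1 to 5 of 5XFAD, and 9074, 8032, 12037, 9675 and 9923 in those of 5XFAD;Neu cKO. Its levels were 1743, 1589, 1666, 1555 and 1545 CPM in 5XFAD and 1696, 1477, 1580, 1628 and 1425 CPM in 5XFAD;Neu cKO. The groups overlapped, with the 2 lowest libraries in 5XFAD;Neu cKO and the highest in 5XFAD.

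App averaged 1561 ± 110 CPM under the label 5XFAD;Neu cKO, against 1620 ± 83.6 CPM under the label 5XFAD (SD, n = 5). Its log2 fold change was -0.05 (SE 0.06, edgeR adjusted p = 0.934), and the exact two-sided permutation test gave p = 0.365 (n = 5 per group). The 95% interval ran from a level lower by 11.9% to one higher by 5.51%. A fall of the size measured for Thy1 lies outside this interval, while changes inside it were not detectable with these libraries. With library size alone as the scale the log2 fold change of App was 0.03 (adjusted p = 0.947, edgeR), so its sign is not fixed by these data.

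**Figure D1:**
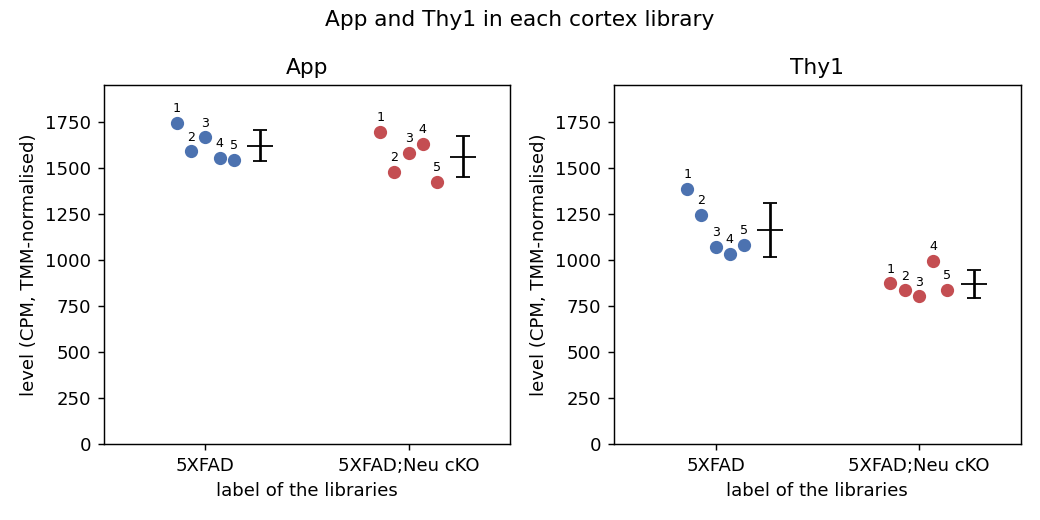
Level of App (left) and Thy1 (right) in CPM in each library, by label, with the replicate number at each point and the mean ± SD (n = 5) as a black bar. The 5 Thy1 values of the libraries labelled 5XFAD;Neu cKO, from 802 to 995 CPM, all lie below the lowest 5XFAD value of 1033 CPM, while the App values of the groups overlap.

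The depth of both genes makes counting error small beside the spread between libraries. Counting error alone is at most 1.48% of a library's value for Thy1 and 1.22% for App, while the SD between 5XFAD libraries was 12.8% of the mean for Thy1 and 5.16% for App. In 5XFAD;Neu cKO libraries these shares were 8.66% and 7.06%. The fitted biological coefficient of variation was 10.5% for Thy1 and 9.70% for App, below that of 98.5% and 99.9% of the genes tested.

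Both genes were among the most abundant of the cortex. By mean CPM over the 10 libraries, App ranked 28th and Thy1 45th of 19268 genes. Among the 31 genes that passed as lower, 25 had a larger fall than Thy1 and 5 a smaller one, and 3 were more abundant. The change of Thy1 was thus smaller in fold than most of these, in a gene with at least 4540 reads in every library.

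**Figure D2:**
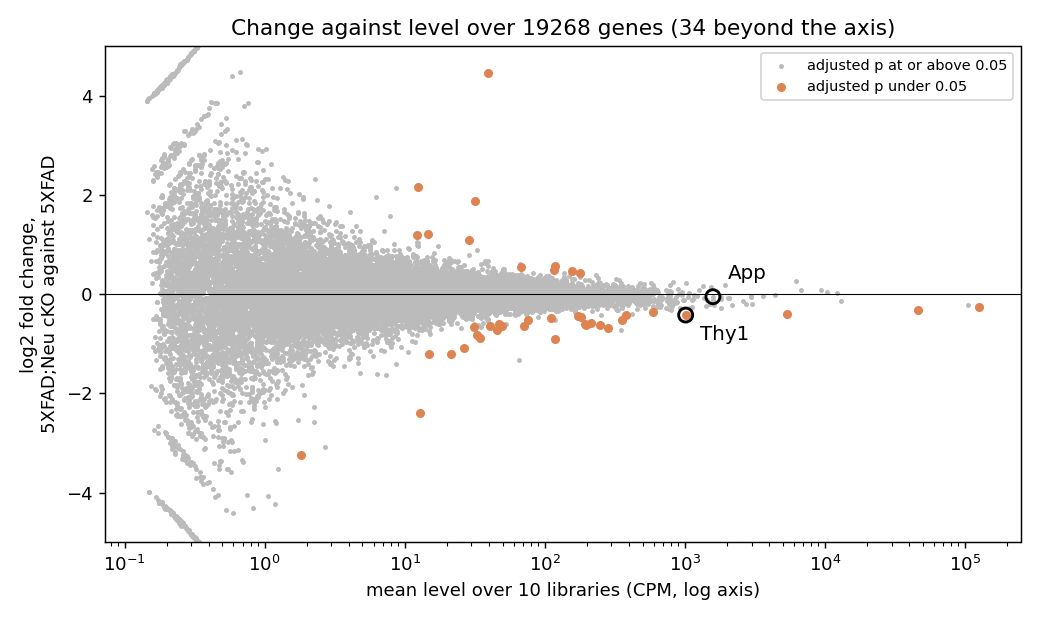
Log2 fold change of each of the 19268 genes tested, 5XFAD;Neu cKO against 5XFAD, against its mean level in CPM on a log axis. Genes at an adjusted p under 0.05 are orange, App and Thy1 are circled, and 34 genes of low level lie beyond the axis. Thy1, at -0.42, lies among the few called genes of high level, and App, at -0.05, lies near 0.

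Ratios of counts within a library do not depend on how libraries are scaled, so the genes were also compared with each other. In replicates 1 to 5 of 5XFAD, 0.795, 0.783, 0.643, 0.664 and 0.700 reads fell on Thy1 for each read on App, and in those of 5XFAD;Neu cKO 0.514, 0.565, 0.508, 0.611 and 0.587. Every ratio of the libraries labelled 5XFAD;Neu cKO was below every ratio of those labelled 5XFAD, so Thy1 fell relative to App. The mean log2 ratio was -0.85 ± 0.12 against -0.49 ± 0.14 (SD, n = 5), a difference of -0.36 with a standard error of 0.08 (exact two-sided permutation test, p = 0.00794, adjusted p = 0.0119 over 3 ratios).

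The other 2 ratios set each gene against 12 genes that neurons express in general, among them Syt1, the calcium sensor of vesicle release, Map2, a microtubule protein of dendrites, and Snap25, a SNARE protein of the synapse. Syt1, at a mean of 3036 CPM, weighs most in their sum, and its own log2 fold change was -0.20 (edgeR adjusted p = 0.252). The log2 ratio of Thy1 to the summed counts of these genes was -3.0 ± 0.09 under the label 5XFAD;Neu cKO, against -2.67 ± 0.13 under the label 5XFAD (SD, n = 5). The groups did not overlap, and the difference of -0.33 had a standard error of 0.07 (exact two-sided permutation test, p = 0.00794, adjusted p = 0.0119). For App the same log2 ratio was -2.15 ± 0.06 against -2.18 ± 0.05 (SD, n = 5), and the groups overlapped. Its difference of 0.03, with a standard error of 0.03, was no larger than the SD within either group (p = 0.373 and adjusted p = 0.373 by the same exact test). With 1 library left out its lowest value was 0.0094 (5XFAD replicate 2 left out), followed by 0.011 (5XFAD;Neu cKO replicate 1), and its highest was 0.052 (5XFAD;Neu cKO replicate 5, exact p = 0.0794). With the median log2 CPM of the 12 genes as the reference, the difference was -0.38 for Thy1 and -0.017 for App.

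**Figure D3:**
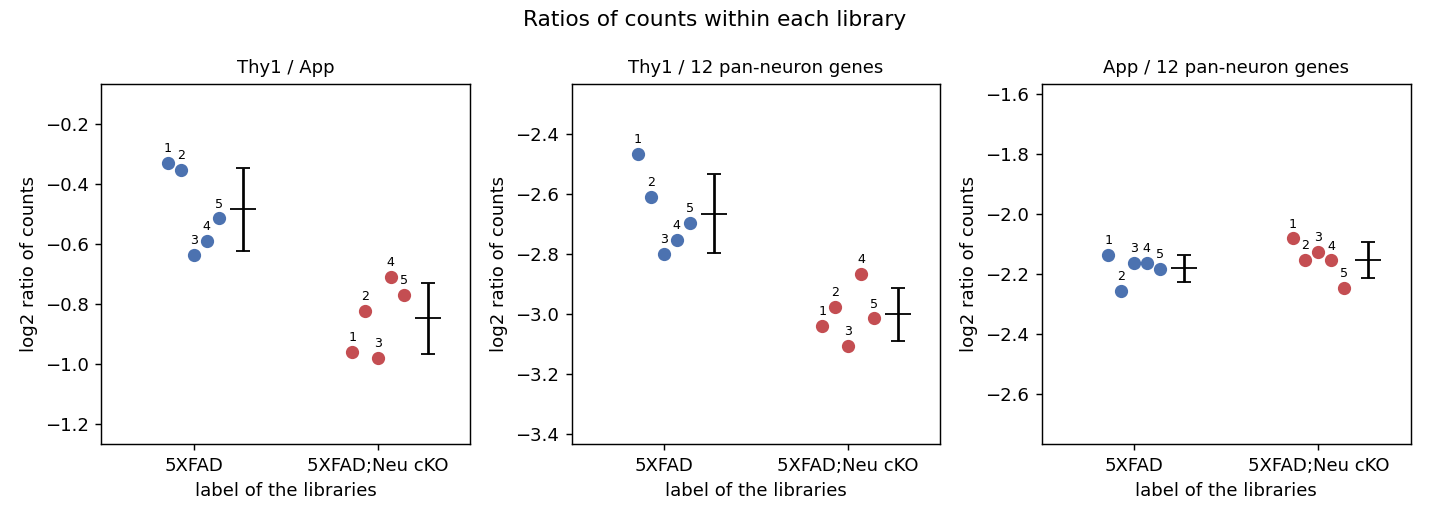
Log2 ratio of the counts of Thy1 to App, of Thy1 to 12 pan-neuron genes and of App to the same 12 genes in each library, by label, with the replicate number at each point and the mean ± SD (n = 5) as a black bar. All 3 panels span the same range of log2 units. The groups are apart in both ratios of Thy1 and overlap in the ratio of App.

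Across the 10 libraries the log2 CPM values of App and Thy1 had Pearson's r = 0.550 (permutation test, p = 0.10) and Spearman's rho = 0.467 (permutation test, p = 0.179). After the group means were subtracted r was 0.542 (permutation test, p = 0.109) and rho 0.418 (permutation test, p = 0.233). Without 5XFAD replicate 1 and 5XFAD;Neu cKO replicate 5, the libraries farthest from the median of App, r was 0.127 (permutation test, p = 0.765), a setting added after the data were seen that also narrows the range of App. With library size alone as the scale r was -0.064.

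The genes whose pattern over the 10 libraries was most like each gene, after the group means were subtracted, were looked up among 8841 genes with a mean of at least 10 CPM. For App they included Lingo1, with r = 0.939, Mphosph8, Fads3 and Slc39a10, with r = 0.911. For Thy1 they were Asah1, with r = 0.955, Ncam2, Ntm, Rprd2 and Cops7b, with r = 0.891. These values are the highest of 8841 correlations over only 10 libraries, so their size owes in part to that choice. Whether they exceed what unrelated genes would reach was not tested, and scaling of the libraries also enters them. Of these 9 genes, 0 passed the threshold between the groups, where 0.218% of all genes did in either direction.

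The relatives of APP, which with it form the APP family, were measured in the same way. Aplp1 reached 390 ± 21.6 CPM under the label 5XFAD;Neu cKO and 413 ± 34.6 CPM under the label 5XFAD, and Aplp2 513 ± 80.4 CPM against 568 ± 46.8 CPM (SD, n = 5). Their log2 fold changes were -0.08 (standard error 0.08, adjusted p = 0.891, edgeR) and -0.15 (standard error 0.08, adjusted p = 0.715, edgeR), and the groups overlapped in both. In both groups the order was App, Aplp2 and Aplp1, the lowest library for one gene lying above the highest for the next. Of the 3, 0 passed the threshold, where 0.218% of all genes did in either direction. The sign of Aplp1 turned with library size alone as the scale. The log2 fold change of Aplp2 was -0.06 on that scale, -0.24 without 5XFAD;Neu cKO replicate 1 and -0.09 without 5XFAD;Neu cKO replicate 5, short of the threshold in each.

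Other genes of APP biology were taken as lists written from general knowledge, none of them complete. Of 14 genes of secretases and their regulators, 0 passed in either direction and the median log2 fold change was -0.05, where the median over all genes was -0.00056. Bace1, the beta-secretase of neurons, had a log2 fold change of -0.12 (edgeR adjusted p = 0.878). Adam10, the main alpha-secretase of neurons, had -0.18 (adjusted p = 0.777), and Rtn3, a reticulon that binds beta-secretase, had -0.01 (adjusted p = 0.990). Of 21 adaptor and trafficking genes 0 passed, with a median of -0.02. Of these, Itm2b, which encodes an inhibitor of APP processing, had a log2 fold change of -0.02, Sorl1, a sorting receptor of APP, of -0.02, and Kif5b, a kinesin motor, of -0.19 (adjusted p = 0.459, edgeR). Of 8 extracellular partners 0 passed, with a median of -0.21. Across these 3 lists 27 of 43 genes had a log2 fold change below 0, where 50.1% of all genes did, and 5 had an unadjusted p under 0.05, where 7.95% of all genes did. The threshold was passed by 0.218% of all genes in either direction.

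Thy1 was next set beside 16 other genes of GPI-anchored neuronal surface proteins, of which 13 had a log2 fold change below 0 and 3 above, with a median of -0.14. Over all genes 50.1% were below 0. None of the 16 passed the threshold, where 0.218% of all genes did in either direction. Groups that did not overlap were found in 0 of them, against 1.3% of all genes. With shares this low, a count of 0 among 16 genes says little. An unadjusted p under 0.05 (edgeR) was found for 5 of the 16, where 7.95% of all genes had one. Cntn1, a contactin of axons, had a log2 fold change of -0.14 (edgeR adjusted p = 0.647). Ntm and Lsamp, adhesion proteins of the IgLON family, had -0.12 (adjusted p = 0.788) and -0.17 (adjusted p = 0.584). Ly6h, named after its values were seen as the smallest adjusted p of the 16, had -0.36 (adjusted p = 0.224). Of 9 genes that encode partners of THY1 0 passed, 6 were below 0 and the median was -0.16. Among them the integrin subunit gene Itgav was at -0.07, the kinase gene Fyn at 0.09 and Itgam, an integrin subunit gene of microglia named after its values were seen, at -0.72 (unadjusted p = 0.0196, adjusted p = 0.488, edgeR).

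**Figure D4:**
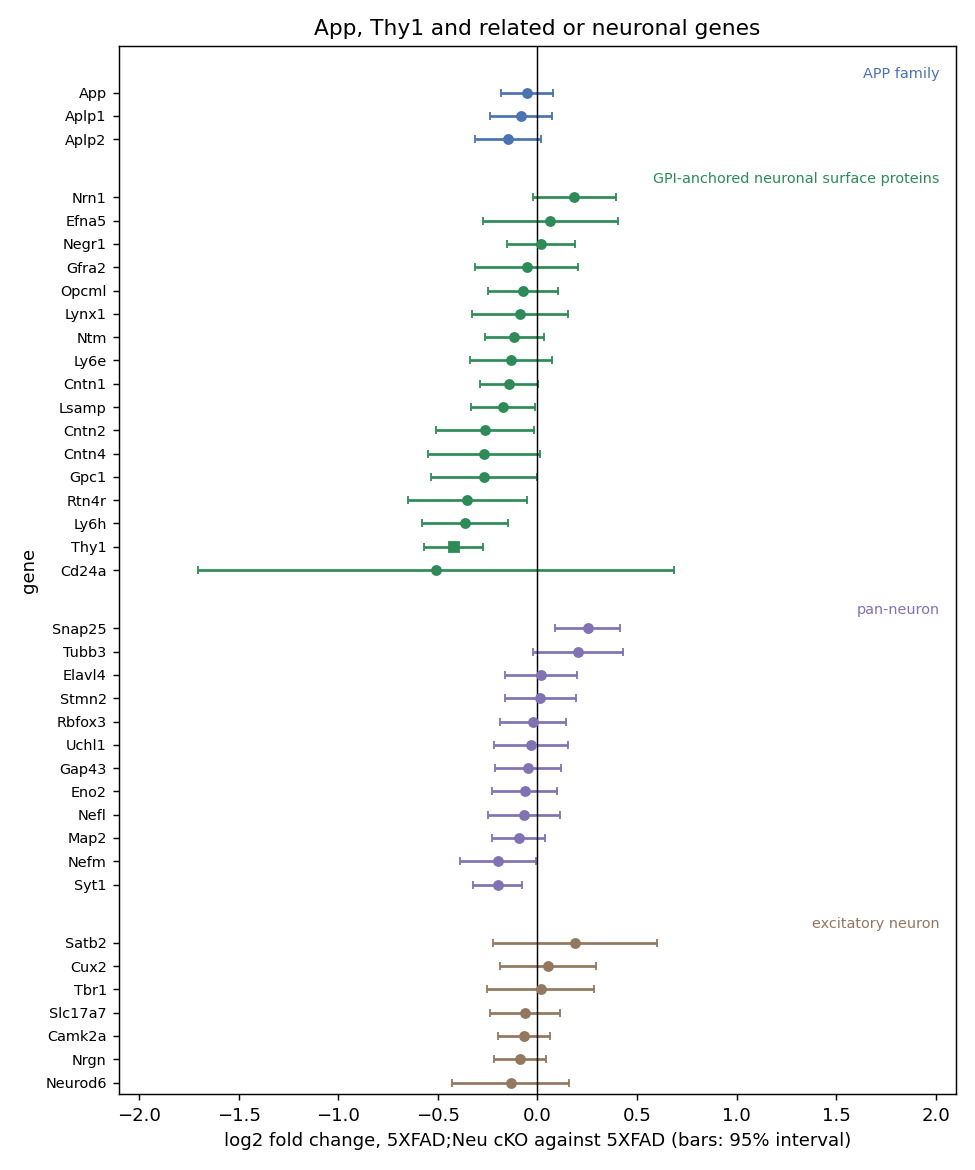
Log2 fold change, 5XFAD;Neu cKO against 5XFAD, with its 95% interval for the APP family, GPI-anchored neuronal surface proteins, pan-neuron genes and excitatory neuron genes. Squares are genes at an adjusted p under 0.05 and circles the others. Thy1 is the only square, and Cd24a, at a mean of 2.46 CPM, has by far the widest interval.

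Genes that mark neurons were then counted, since a bulk library cannot tell fewer cells of a type from less RNA per cell. Of 32 such genes in 4 lists, 0 passed the threshold in either direction, where 0.218% of all genes did. Groups that did not overlap were found in 0 of them, against 1.3% of all genes. With shares this low, a count of 0 among 32 genes says little. An unadjusted p under 0.05 (edgeR) was found for 5, where 7.95% of all genes had one. The median log2 fold change of the 32 was -0.04. The excitatory neuron genes Camk2a, Nrgn and Slc17a7 had log2 fold changes of -0.07, -0.09 and -0.06, and Bcl11b, a transcription factor of deep layer projection neurons, had 0.10. Among pan-neuron genes Syt1 had -0.20 (adjusted p = 0.252), Map2 -0.09 and Snap25 0.25 (adjusted p = 0.287). The lowest of the 32 was Vip, a peptide gene of interneurons named after its values were seen, at -0.42 (SE 0.17, edgeR adjusted p = 0.475). The summed level of the pan-neuron genes ran from 6576 to 7249 CPM under the label 5XFAD;Neu cKO and from 6971 to 7663 CPM under the label 5XFAD.

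Markers of the other cells that can express Thy1 were counted as well. The T cell genes Cd3d, Cd3g and Cd2 were at 0 in all 10 libraries, Cd3e was counted 1 time in all, and Lck 0 to 7 times per library. Ptprc, which is also expressed by microglia, was the exception in this list, with 25 to 64 reads per library and a log2 fold change of -0.71 (unadjusted p = 0.0291, adjusted p = 0.544, edgeR). The fibroblast and meningeal list summed to 69.0 to 84.1 CPM in 5XFAD;Neu cKO and 57.9 to 91.5 CPM in 5XFAD. Of its 5 genes 0 passed, where 0.218% of all genes did in either direction. Pdgfra, at a mean of 28.9 CPM, weighs most in the sum of this list, and whether its reads came from fibroblasts was not tested. The lowest level of Thy1 in any library was 802 CPM.

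Microglial genes moved with the labels. Of 12 of them, 12 had a log2 fold change below 0, where 50.1% of all genes did, and 6 passed as lower, where 0.161% of all genes did, namely Ctss, C1qb, Tyrobp, Csf1r, C1qc and Cx3cr1. Their 12-gene sum ran from 323 to 411 CPM under the label 5XFAD;Neu cKO and from 474 to 696 CPM under the label 5XFAD. 5XFAD replicates 1 and 2, the highest for Thy1, were also the highest here, at 696 and 695 CPM. Other libraries did not follow this order. 5XFAD replicate 4, the lowest of its group for Thy1 at 1033 CPM, summed to 608 CPM. In 5XFAD;Neu cKO, replicate 4 was highest for Thy1, at 995 CPM, and summed to 379 CPM. Replicate 2 of that group, with Thy1 at 835 CPM, summed to 411 CPM. Of 7 astrocyte genes Gfap passed as lower, at -0.88, and the list summed to 3427 to 3946 CPM against 3523 to 4154 CPM. Of 8 oligodendrocyte genes 0 passed, where 0.218% of all genes did in either direction, while 8 were below 0. An unadjusted p under 0.05 (edgeR) was found for 4 of the 8, where 7.95% of all genes had one. Mobp, named after its values were seen as the smallest adjusted p of the 8, was at -0.43 (adjusted p = 0.0662). The list summed to 1766 to 2798 CPM against 1956 to 2893 CPM. Of 5 endothelial genes 0 passed, with a median of 0.01. The paper already reports Ctss, Tyrobp, Csf1r and Gfap as lower in these libraries. The lists were chosen with earlier results known, so their counts beside the share of all genes are no independent result. The part of the lower microglial genes and of Gfap in the result for Thy1 was not tested.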

How the data were processed

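Single QuantSeq reads were trimmed by the authors and placed on GRCm39 by STAR 2.7.3a. Reads per Ensembl gene were then counted by htseq-count. The submitters' processing notes give HTSeq 0.9.1, the paper a later version. The strand setting of the counting is not given in the sources used here, so whether reads of an antisense partner were kept apart is not known. The values they deposited are these counts, without normalization. Between 31.3% and 39.9% of the reads kept by the counting fell on no gene, and summary rows were left out.

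Genes with a total above 10 entered edgeR 4.0.16 under R 4.3.3 (TMM scaling, a quasi-likelihood test, group as the only term), with Benjamini-Hochberg adjustment over 19268 genes and a threshold of 0.05. Intervals are 95%. Single values used exact permutation tests over 252 relabellings, and correlations 100000 permutations. Ratios added 0.5 to each count. No 2 libraries of a group agreed within sampling noise (smallest chi-square per degree of freedom 5.70 over 20 pairs). The steps were tested on simulated counts.

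GENCODE annotation of GRCm39 gave names and places (52610 identifiers named), and sequences were read from that genome. Named genes were App, Thy1, Mylip, list members past the threshold, the 4 most abundant others of a list, the APP family and the 5 genes most alike in pattern. Of these, 1 gene is not reported here. Protein sequences were not used here. Members and lists were chosen with earlier results of these data known. Alternatives were DESeq2 1.42.0, other scaling and filters, a robust fit, no mitochondrial genes, a replicate block and leaving out each library.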

Additional observations from a re-analysis of the deposited data

Results flagged for a closer look

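In 5XFAD replicate 2 Csf1r, the receptor gene on which microglia depend, stood apart from the other libraries of its group at 78.4 CPM, the next value being 58.7 CPM. Of the 50 groups of 5 values examined this was the 1 that stood apart, where chance gives about 1 in 20. No value of App, of Thy1 or of their 3 ratios did so.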

How the results depend on the processing

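Thy1 kept its direction and its side of the threshold in all 8 alternatives with 10 libraries, with log2 fold changes from -0.42 to -0.33 and adjusted p-values from 8.17e-07 to 0.00989 (edgeR or DESeq2), and in all 10 fits without a library, from -0.48 to -0.35. App stayed short of the threshold in all of them, at -0.084 to -0.022 without a library. With library size alone as the scale App was at 0.033 and Aplp1 at 0.0076, both turned in sign, and the correlation of App and Thy1 was -0.064. The median of all genes was 0.086 on that scale. The correlation ran from 0.326 to 0.727 with a library left out, and passed without 5XFAD;Neu cKO replicate 1 (permutation test, p = 0.0253). Against the median log2 CPM of the pan-neuron genes the difference in App was -0.017. The number of genes past the threshold, 42, was 73 with DESeq2, 103 with no filter on low counts, 112 with the replicate block and 26 to 72 without a library (26 without 5XFAD replicate 2, 27 without 5XFAD;Neu cKO replicate 4 or 5, 72 without 5XFAD;Neu cKO replicate 1). The cause was not tested.

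The replicate numbers did not pair the libraries: deviations of same-numbered libraries correlated at -0.078 to 0.054, and 0 of 5 correlated best with their own number. With the replicate block, the change on the log2 scale was -0.42 for Thy1 (adjusted p = 8.17e-07, edgeR) and -0.05 for App (adjusted p = 0.984). The log2 ratios of Thy1 differed by -0.36 (to App) and -0.33 (to pan-neuron genes), each with an exact sign-flip p = 0.0625, the smallest that 5 pairs allow, and an adjusted p of 0.0938. Among the microglial genes, C1qc was short of the threshold without 5XFAD replicate 4 (adjusted p = 0.0636, edgeR) or 5XFAD;Neu cKO replicate 5 (0.0984), Csf1r without 5XFAD replicate 2 (0.0808), and Cx3cr1 without 5XFAD replicate 2 (0.231) or 5XFAD;Neu cKO replicate 3 (0.0846), 4 (0.0694) or 5 (0.0801) and with library size alone (0.101). Counting error of App and Thy1 was small beside their spread between libraries, in which mouse and library preparation cannot be told apart.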
